A study of Mus musculus with 4 samples.

Results

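The 10 genes described here are Trem2, Tyrobp, Gpnmb, Spp1, Cd9, Cd63, Lgals3, Lipa, Itgax and Lgmn, a set associated with the TREM2-dependent programme of lipid-associated macrophages. They were taken by gene symbol, and all 10 were found among the 53379 identifiers of the count table and passed the filter on low counts that left 18422 genes. The pseudogene Cd63-ps, a copy of Cd63, is given beside Cd63. RNA came from tumour-associated macrophages of C57BL/6J mice carrying tumours of the MC38 model, a mouse colon carcinoma line, 21 days after implantation. The cells had been sorted for CD45, CD11b and F4/80. One group of 2 mice was fed a high-fat diet and the other group of 2 mice a control diet, and the comparison asks which transcripts differ with the diet of the host. No genetic change or drug is named for either group, and the mice's age and sex, what the diets contained and how long they were fed are not given in the sources used.

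TREM2 is a surface receptor of macrophages and microglia that binds lipids, lipoproteins and debris of dying cells, and it signals through the adaptor TYROBP (DAP12), whose immunoreceptor tyrosine-based activation motif recruits the kinase SYK. In adipose tissue of obese animals, in atherosclerotic plaques and around amyloid deposits, macrophages or microglia that engulf lipid-rich material turn on genes of lysosomes, lipid handling and adhesion, and part of this response needs TREM2. TREM2-positive macrophages are also a common population in tumours.

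Libraries held 34148682 to 37159552 counts. All 13 macrophage markers listed, among them Ptprc, Itgam and Adgre1, which encode the antigens of the sort, were detected in each library, with a summed level of 14372 to 17240 CPM (read counts relative to library sizes scaled by the TMM method). Summed levels of other lists were lower, at 574 to 1397 CPM for monocyte and 171 to 392 for neutrophil markers. They were 118 to 223 for dendritic cell and 780 to 2059 for fibroblast and pericyte markers. The lists differ in the number, length and abundance of their genes, so the sums do not give shares of cells. Control-diet mouse 1 stood apart. It had the highest sums of monocyte, neutrophil, dendritic cell, and T and NK cell markers and the lowest sum of macrophage markers. Genes of the macrophage list were split in that mouse. C1qa (1462 CPM), C1qb (1643), C1qc (1340), Itgam, Adgre1, Cd68 and Mertk were lowest there. Lyz2 (4245 CPM), Csf1r (2120), Cd14 (1248) and Fcgr1 (485) were highest there, and Ptprc and Mrc1 were neither. In bulk RNA, fewer cells of a type and less RNA per cell cannot be told apart.

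Gpnmb and Cd63 rose in the high-fat-diet mice, each about 2.1-fold, and the other 8 genes were not called in either direction. Trem2 itself and Lgmn had higher values in both high-fat-diet mice than in both control-diet mice without passing the test, the Tyrobp values of the diets overlapped, and Itgax and Cd9 had lower values. A gene is called here at an adjusted p below 0.05 in edgeR's quasi-likelihood test over all genes. Of the 10 genes, 2 (20%) were called higher, against 2.61% of all tested genes and 2.88% of the 8406 genes at or above a mean log2 CPM of 4. In either direction, 10.5% of all tested genes and 8.03% of those 8406 were called. None was called lower by edgeR, against 7.91% of all tested genes and 5.15% of the 8406, nor by DESeq2 or limma-voom, and 0 of the 4 genes with a negative log2 fold change had an unadjusted p under 0.05. High-fat-diet and control-diet libraries did not overlap for 7 of the 10 genes, 5 of them higher and 2 lower with high-fat diet. Over all tested genes the libraries did not overlap for 63.8%, 32.2% higher and 31.6% lower, and among the 8406 for 62.8%, 31.4% higher and 31.4% lower. A share of 7 in 10 is near that background. The median log2 fold change of the 10 genes was 0.23, against 0.00 over all tested genes.

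**Figure D1:**
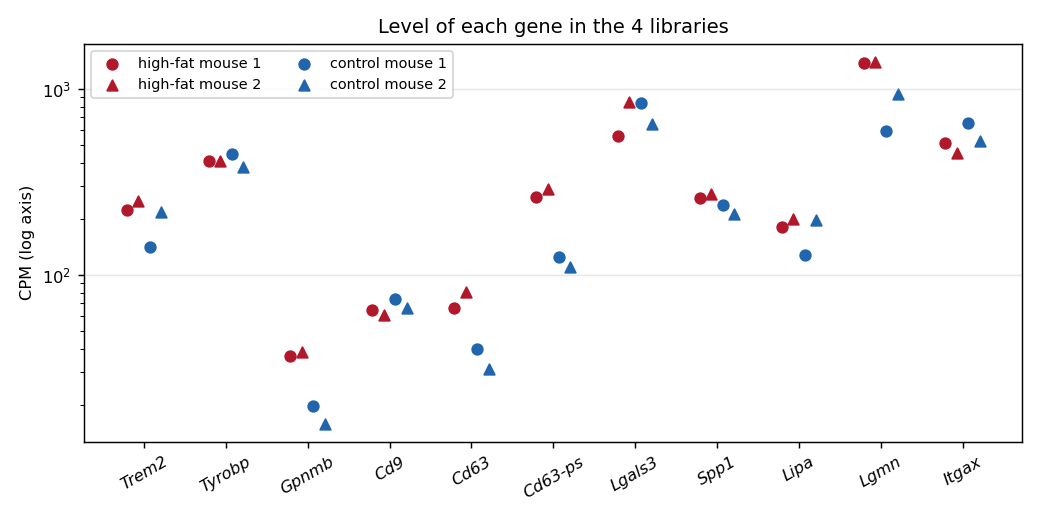
CPM (log axis) of each of the 10 genes and Cd63-ps in the 4 libraries, red for high-fat diet and blue for control diet, circles for mouse 1 and triangles for mouse 2. Gpnmb, Cd63 and Cd63-ps show the widest gap between red and blue points, while the colours are mixed for Tyrobp, Lgals3 and Lipa.

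The receptor gene Trem2 (ENSMUSG00000023992.14, chromosome 17, 48346401 to 48354147, plus strand, GRCm38) had 222.6 and 248.9 CPM in high-fat-diet mice 1 and 2 and 140.8 and 216.7 CPM in control-diet mice 1 and 2. Both high-fat-diet values lay above both control-diet values, but control-diet mouse 2 was nearly as high as high-fat-diet mouse 1 and control-diet mouse 1 stood well below the other 3. Its log2 fold change was 0.40 (SE 0.23, edgeR adjusted p = 0.28). That value rested on the control-diet mice: it was 0.13 without control-diet mouse 1 (edgeR adjusted p = 0.682) and 0.74 without control-diet mouse 2 (edgeR adjusted p = 0.0224), the latter past the threshold. With 2 mice against 2, an exact two-sided permutation test of a single gene cannot go below p = 0.333.

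Tyrobp (ENSMUSG00000030579.10, chromosome 7, 30413760 to 30417585), the adaptor through which TREM2 and several related receptors signal, had 407.9 and 410.4 CPM with high-fat diet, against 446.7 and 380.2 CPM with control diet. The high-fat-diet mice lay between the control-diet mice, and the log2 fold change was -0.01 (SE 0.16, edgeR adjusted p = 0.959). Within a library, the ratio of Trem2 to Tyrobp counts was 0.546 and 0.606 in the high-fat-diet and 0.315 and 0.57 in the control-diet mice. Only control-diet mouse 1 was far from the other 3 libraries in that ratio.

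The start of Trem2 is shown because it holds a match to the same search pattern, TGANTCA, as the start of Gpnmb, one of the genes that rose. Promoter windows of 300 bases, from 250 before to 50 after a transcript start, were taken from RefSeq (GRCm38.p6). They were found for 9 of the 10 genes, 11 windows in all, with none for Tyrobp. Both strands were searched for TCACGTG (the E-box bound by MITF and TFEB), TCATGTG (the M-box of the same family), TGANTCA (AP-1) and GAGGAAGT (PU.1), and no window of these genes held more than 1 match. The N of TGANTCA was any base, which makes that pattern a loose one. Bases that match one of these are in capitals. In Trem2 they are TGAATCA, a match to TGANTCA beginning 9 bases before the start. Its centre base is A, where Gpnmb has C (TGACTCA).
Trem2 (chr17:48346151-48346450, plus strand): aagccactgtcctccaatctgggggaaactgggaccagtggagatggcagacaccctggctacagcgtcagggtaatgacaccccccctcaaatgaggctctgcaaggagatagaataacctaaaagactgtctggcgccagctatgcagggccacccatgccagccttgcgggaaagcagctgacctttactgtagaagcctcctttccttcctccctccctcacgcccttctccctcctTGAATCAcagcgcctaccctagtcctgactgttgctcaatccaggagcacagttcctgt
The AP-1 letters stood in the windows of 3 genes, Trem2, Gpnmb and Itgax, and in 7.81% of all 32851 windows. Spp1 held the PU.1 letters, found in 3.2% of all windows, and no window of the 10 genes held the M-box, found in 3.77%. The genes with AP-1 letters had log2 fold changes of both signs, 1.07 for Gpnmb, 0.40 for Trem2 and -0.29 for Itgax. A match is a description of the letters and not evidence of binding.

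**Figure D2:**
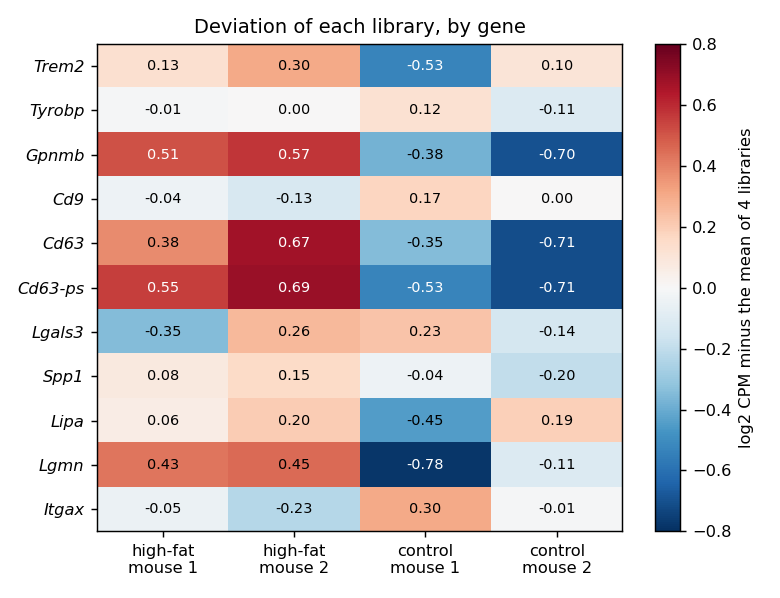
Log2 CPM of each library minus the mean of the 4 libraries, for each gene (rows) and mouse (columns), red above and blue below the mean. Control-diet mouse 1 is the lowest library for Trem2 (-0.53), Lipa (-0.45) and Lgmn (-0.78), whereas control-diet mouse 2 is the lowest for Gpnmb (-0.70), Cd63 (-0.71) and Cd63-ps (-0.71).

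Gpnmb encodes a transmembrane glycoprotein of lysosomes and phagosomes that is induced in lipid-laden macrophages, and it was the least abundant of the 10 genes. Gpnmb (ENSMUSG00000029816.10, chromosome 6, 49036546 to 49070929, plus strand) had 36.64 and 38.15 CPM with high-fat diet, against 19.73 and 15.81 CPM with control diet. The diets were well apart and the mice of a diet close together. Gpnmb rose 2.11-fold (log2 fold change 1.07, SE 0.17, edgeR adjusted p = 0.0215). The fold stayed near this size with 1 high-fat-diet library removed, 1.12 without mouse 1 and 1.07 without mouse 2 on the log2 scale, but the call ended (edgeR adjusted p = 0.073 and 0.0811).

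Cd63 encodes a tetraspanin of late endosomes, lysosomes and exosomes. Cd63 (ENSMUSG00000025351.14, chromosome 10, 128900989 to 128912822, plus strand) had 66.12 and 80.6 CPM under high-fat feeding, against 39.83 and 31.02 CPM under control feeding. The diets did not overlap. Cd63 rose 2.07-fold (log2 fold change 1.05, SE 0.19, edgeR adjusted p = 0.0287), and the call ended without high-fat-diet mouse 2 (0.92 on the log2 scale, edgeR adjusted p = 0.0992).

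More reads were counted for the pseudogene than for the gene. Cd63-ps (ENSMUSG00000085939.3), on another chromosome than Cd63, is a transcribed processed pseudogene and matched the Cd63 transcript over 812 of its 1109 bases with 98.5% identity in the GENCODE annotation. Cd63 has 9 exons in that transcript and Cd63-ps has 1. Cd63-ps had 262.9 and 288.6 CPM with high-fat diet, against 124.6 and 109.8 CPM with control diet, again without overlap. It was called higher too, 2.35-fold (log2 fold change 1.23, SE 0.15, edgeR adjusted p = 0.0139). The ratio of Cd63-ps to Cd63 counts was 3.98 and 3.58 in the high-fat-diet and 3.13 and 3.54 in the control-diet mice. The sources used here do not say how reads that fit both places were assigned, so the 2 rows cannot be taken as separate measurements. With their counts summed before the fit, the log2 fold change was 1.19 (SE 0.16, edgeR adjusted p = 0.0163).

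The starts of these 2 genes that rose are given for comparison with Trem2. The capitals in Gpnmb mark an AP-1 match beginning at base 9, counting the start base as the first. The Cd63 window held none of the motifs searched. It lies at a RefSeq start inside the GENCODE span of the gene, which begins at 128900989. The outer end of that span was not searched.
Gpnmb (chr6:49036268-49036567, plus strand): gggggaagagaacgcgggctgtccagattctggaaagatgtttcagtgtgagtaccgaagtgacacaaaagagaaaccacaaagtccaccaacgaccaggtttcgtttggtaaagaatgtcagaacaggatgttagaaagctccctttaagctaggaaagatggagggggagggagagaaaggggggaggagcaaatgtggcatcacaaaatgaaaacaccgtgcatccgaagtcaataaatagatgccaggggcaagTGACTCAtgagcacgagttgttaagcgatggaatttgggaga
Cd63 (chr10:128909095-128909394, plus strand): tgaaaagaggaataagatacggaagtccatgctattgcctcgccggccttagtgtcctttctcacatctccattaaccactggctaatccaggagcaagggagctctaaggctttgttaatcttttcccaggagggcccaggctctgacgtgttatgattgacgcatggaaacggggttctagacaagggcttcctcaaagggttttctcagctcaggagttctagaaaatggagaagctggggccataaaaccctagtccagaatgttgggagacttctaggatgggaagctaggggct

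Fibroblast and pericyte markers moved with Gpnmb and Cd63. All 10 genes of that list had a positive log2 fold change, 6 were called higher, and their summed level was 2059 and 2048 CPM with high-fat diet, against 1040 and 780 CPM with control diet. Col3a1 made up most of that sum. Cd63, Cd9, Lgals3 and Spp1 are known to be expressed outside macrophages as well. Epithelial tumour markers went the other way, with 6 of 7 called lower: Epcam, Krt8, Krt18, Krt19, Cldn3 and Cldn7 together had 1.01 and 0.834 CPM with high-fat diet, against 12.5 and 58.8 CPM with control diet. The remaining one, Cdh1, was not called and had 38.5 and 45.2 CPM against 144 and 57 CPM. Their part in the values of the 10 genes was not tested.

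Lgmn and Lipa, which encode soluble lysosomal enzymes, had their lowest values in control-diet mouse 1. Lgmn encodes legumain, a lysosomal asparaginyl endopeptidase that activates cathepsins, and it had the highest mean CPM of the set in either diet, though Lgals3 and Itgax were above it in control-diet mouse 1. Lgmn (ENSMUSG00000021190.14, chromosome 12, 102394084 to 102439813, minus strand) had 1371 and 1389 CPM with high-fat diet, against 592.8 and 939.5 CPM with control diet. The high-fat-diet mice were within a few percent of each other, above both control-diet mice, which differed widely. The log2 fold change was 0.85 (SE 0.24, edgeR adjusted p = 0.0752), short of the threshold. Lgmn passed it with DESeq2 (adjusted p = 0.00748) and with edgeR without a filter on low counts (adjusted p = 0.00495). With the mouse number as a block in edgeR it passed as well (adjusted p = 0.0448). It did not pass with limma-voom (adjusted p = 0.0671). Nor did it pass in edgeR at a minimum count of 50 (adjusted p = 0.0992) or with other scaling (adjusted p = 0.0777 and 0.0828). The log2 fold change was 0.56 without control-diet mouse 1 and 1.22 without control-diet mouse 2.

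RefSeq lists 2 starts for Lgmn, and the window of the inner one is shown because it held the E-box letters of the lysosomal gene network, found in 3.77% of all windows. The capitals mark that match, which begins 50 bases before the start.
Lgmn (chr12:102439043-102439342, minus strand): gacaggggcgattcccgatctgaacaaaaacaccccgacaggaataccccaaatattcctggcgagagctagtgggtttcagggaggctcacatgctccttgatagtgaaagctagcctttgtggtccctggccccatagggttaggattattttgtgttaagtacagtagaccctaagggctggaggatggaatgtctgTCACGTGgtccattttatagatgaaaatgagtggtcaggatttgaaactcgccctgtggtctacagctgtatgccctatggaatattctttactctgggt
The window of the outer Lgmn start and that of Lipa held none of the 4 motifs.

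Lipa (ENSMUSG00000024781.15, chromosome 19) encodes lysosomal acid lipase, which hydrolyses the cholesteryl esters and triglycerides of engulfed lipoproteins. It had 179.7 and 198.3 CPM with high-fat diet, against 126.7 and 197.2 CPM with control diet. Control-diet mouse 2 was inside the range of the high-fat-diet mice, and only control-diet mouse 1 was low. The log2 fold change was 0.22 (SE 0.23, edgeR adjusted p = 0.546) and turned to -0.06 without control-diet mouse 1.

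Trem2, Lipa and Lgmn thus differed between the control-diet mice in one direction, with log2 ratios of mouse 2 over mouse 1 of 0.62, 0.64 and 0.66. In the other 7 genes of the set this ratio was negative, from -0.38 for Lgals3 to -0.16 for Spp1. By the root mean square difference of mean-centred log2 CPM over the 4 libraries, Lipa was the closest of the set to Trem2 at 0.087, followed by Lgmn at 0.23, and the others were at 0.29 to 0.5. Among 5590 other protein-coding genes at or above a mean log2 CPM of 5, the 5 closest to Trem2 were Gas2l3 (0.036), Gna12 (0.036), C1qb (0.059), Tbc1d15 (0.065) and Rpl23 (0.067). C1qb, a chain of complement C1q, had 2879 and 3052 CPM under high-fat feeding, against 1643 and 2777 CPM under control feeding, the same order of libraries as Trem2. In control-diet mouse 1, the sum of monocyte markers was 1397 CPM against 574 to 985 in the other 3 libraries, that of neutrophil markers 392 against 171 to 193, and that of T and NK cell markers 109 against 28.6 to 35.8. The part of these in the lower Trem2, Lipa and Lgmn of that mouse was not tested.

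**Figure D3:**
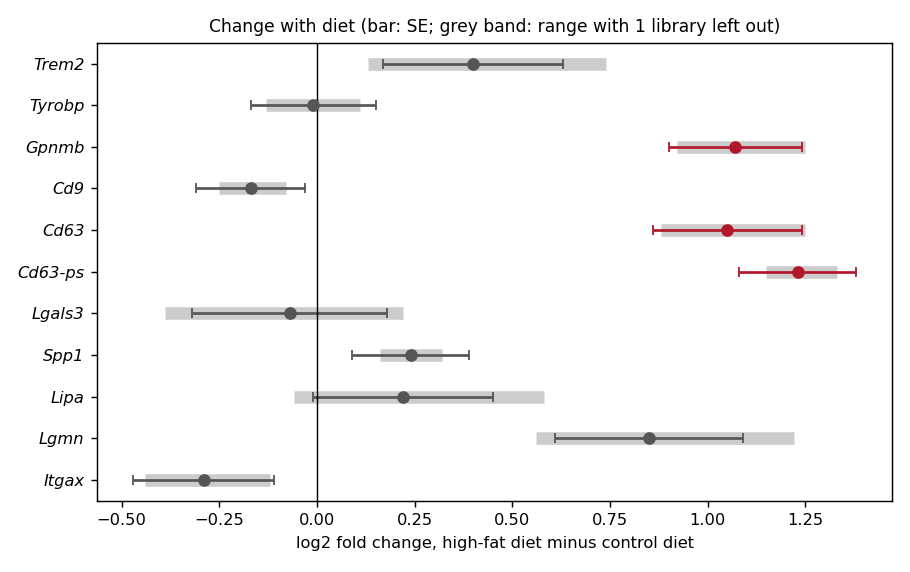
Log2 fold change, high-fat diet minus control diet, of each gene with its standard error (bars), over the range of values obtained when 1 of the 4 libraries was left out (grey bands), red where the adjusted p was below 0.05. Gpnmb (0.92 to 1.25), Cd63 (0.88 to 1.25) and Cd63-ps (1.15 to 1.33) keep their size, whereas the band of Trem2 runs from 0.13 to 0.74 and those of Tyrobp, Lgals3 and Lipa cross 0.

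The secreted proteins of the set had no call. Spp1 (ENSMUSG00000029304.14, chromosome 5, 104435118 to 104441050) encodes osteopontin, which binds integrins and CD44. It had 257.4 and 270.2 CPM with high-fat diet, against 236.2 and 212 CPM with control diet, so the diets did not overlap but lay close together (log2 fold change 0.24, SE 0.15, edgeR adjusted p = 0.322). Lgals3 (ENSMUSG00000050335.17, chromosome 14, 47367751 to 47386160) encodes galectin-3, a lectin that binds beta-galactosides and gathers on damaged lysosomes. It had 556.8 and 850.5 CPM with high-fat diet, against 834.4 and 643.2 CPM with control diet. The mice of a diet differed more from each other than the diets did (log2 fold change -0.07, SE 0.25, edgeR adjusted p = 0.873).

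The surface proteins Cd9 and Itgax had no call. Cd9 (ENSMUSG00000030342.8, chromosome 6, 125460266 to 125494791) encodes a tetraspanin of the plasma membrane that marks lipid-associated macrophages of adipose tissue. It had 64.38 and 60.36 CPM under high-fat feeding, against 74.38 and 66.22 CPM under control feeding, slightly lower with high-fat diet without overlap (log2 fold change -0.17, SE 0.14, edgeR adjusted p = 0.446). A pseudogene, Cd9-ps, matched 664 bases of the Cd9 transcript at 90.7% identity and held 34.2 and 37.9 CPM with high-fat diet, against 46.2 and 40.3 CPM with control diet, so the Cd9 count is uncertain too. Itgax (ENSMUSG00000030789.9, chromosome 7, 128129547 to 128150657) encodes CD11c, an integrin alpha chain of dendritic cells and some macrophages. It had 509.2 and 449.4 CPM with high-fat diet, against 649.4 and 523.9 CPM with control diet, lower in both high-fat-diet mice but with a gap smaller than the spread of the control-diet mice (log2 fold change -0.29, SE 0.18, edgeR adjusted p = 0.309). Of 8 dendritic cell markers, 2 were called lower, Clec9a and Cd209a, and the 7 other than Fscn1 summed to 22.6 and 28.1 CPM with high-fat diet, against 98.1 and 58 CPM with control diet. Fscn1, the most abundant of the list, had 108 and 124 CPM against 125 and 60.3 CPM. Their part in the Itgax values was not tested.

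Levels can be ordered between genes only per length. Divided by the length of the principal transcript, the set ran in the high-fat-diet mice from Tyrobp (725 CPM per kb) and Lgmn (693) through Lgals3 (496), Trem2 (217), Spp1 (175) and Itgax (118) to Cd63 (66.2), Lipa (63.7), Cd9 (50.8) and Gpnmb (10.1). Cd63 and Lipa were not separated there by their mice. In the control-diet mice the order of means began with Tyrobp (733), Lgals3 (521) and Lgmn (385), the last 2 with overlapping mice (588 and 453 for Lgals3, 298 and 472 for Lgmn). It went on with Trem2 (164), Spp1 (149) and Itgax (145), whose mice overlapped, then Cd9 (57.2) and Lipa (54.5), which overlapped too, and ended with Cd63 (31.9) and Gpnmb (4.8). The place of Cd63 depends on its pseudogene: with the reads of both rows over the Cd63 transcript it would be at 315 CPM per kb with high-fat diet, above Trem2, and at 138 with control diet. The place of Trem2 depends on the length used, as its annotation holds a transcript with a retained intron. Per kb of all its annotated exons, the mean of Trem2 over the libraries was 41.9 CPM per kb, against 148 for Spp1 and 111 for Itgax. The place of Cd63 depends on the length as well. By that length its own row was at 14.8 CPM per kb, below Cd9 (32.5) and Lipa (25.9).

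Among genes around the receptor, the ligand gene Apoe rose, and Apoa1, Trem1, Trem3, Treml2, Plcg2 and Malt1 fell in the high-fat-diet mice. Counts in each list stand against 2.61% of all tested genes called higher, 7.91% called lower and 10.5% called in either direction. Of 4 ligands listed, 3 were tested: Apoe, the apolipoprotein that TREM2 binds, rose with 10014 and 10093 CPM against 2291 and 2619 CPM (log2 fold change 2.03, SE 0.18, edgeR adjusted p = 0.00637). Clu, another apolipoprotein, had 2.32 against 2.63 CPM on average and was not called. Apoa1, the main protein of high-density lipoprotein, had no counts in either high-fat-diet mouse and 2.1 and 0.753 CPM in the control-diet mice. Against a floor of 3 counts over the diet it was at least 34.8-fold lower with high-fat diet, and it was called lower (edgeR adjusted p = 0.0269). Such a floor covers counting error only.

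Of 15 tested genes of the TREM family and other receptors that pair with TYROBP, 3 (20%) fell, against 7.91% of all genes, and none rose (median log2 fold change -0.60). Trem1, a receptor that amplifies inflammatory responses, had 73.1 and 102 CPM with high-fat diet, against 324 and 209 CPM with control diet (log2 fold change -1.61, SE 0.27, edgeR adjusted p = 0.0255). Trem3 fell with a log2 fold change of -1.81 (edgeR adjusted p = 0.0326) and Treml2 with -0.84 (edgeR adjusted p = 0.0294). The ratio of Trem1 to Trem2 counts was 0.328 and 0.409 in the high-fat-diet and 2.3 and 0.966 in the control-diet mice, so Trem2 reads outnumbered Trem1 reads strongly with high-fat diet. Neutrophils also express Trem1, and 5 of 8 neutrophil markers, S100a8, S100a9, Ly6g, Cxcr2 and Retnlg, were called lower. Those 5 summed to 5.55 and 4.3 CPM against 119 and 44.6 CPM, with Ly6g at 0 counts in both high-fat-diet libraries. The other 3, mostly Mmp9 and Csf3r, summed to 187 and 167 CPM against 273 and 148 CPM. Their part in the Trem1 values was not tested.

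Of 19 genes of TREM2 signalling and shedding, 2 (10.5%) fell, near the 7.91% of all genes, and none rose (median log2 fold change -0.19). Plcg2, the phospholipase that acts below SYK, had 153 and 161 CPM under high-fat feeding, against 311 and 261 CPM under control feeding (log2 fold change -0.87, SE 0.16, edgeR adjusted p = 0.0301). Malt1, a paracaspase that carries receptor signals to NF-kB, fell with a log2 fold change of -1.74 (edgeR adjusted p = 0.04), which was -1.05 without control-diet mouse 1. Syk had 196 and 241 CPM against 463 and 336 CPM (edgeR adjusted p = 0.0525), and Pik3cd, a catalytic subunit of PI 3-kinase, had 196 and 208 CPM against 384 and 294 CPM (edgeR adjusted p = 0.0514).

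Other genes of lipid-associated macrophages were mixed. Of 20 tested, 3 rose, Apoe, Fabp4 and Fabp5, and 1 fell, Cd36 (median log2 fold change 0.14). Fabp5, a fatty acid binding protein, had 28 and 31.6 CPM with high-fat diet, against 17 and 9.81 CPM with control diet (log2 fold change 1.16, SE 0.27, edgeR adjusted p = 0.0486). Fabp4 had a log2 fold change of 1.85 (edgeR adjusted p = 0.0239) at 3.39 CPM with high-fat diet. Cd36, a scavenger receptor for fatty acids and oxidised lipoproteins, had 16.7 and 15.4 CPM with high-fat diet, against 30.1 and 61.3 CPM with control diet (log2 fold change -1.51, SE 0.33, edgeR adjusted p = 0.0414), and was at -0.91 without control-diet mouse 2. Of 18 genes of disease-associated microglia, Apoe, Timp2 and Igf1 rose and Ccl6 fell (median 0.09). Timp2, an inhibitor of matrix metalloproteases, had a log2 fold change of 0.80 (edgeR adjusted p = 0.0472), Igf1 one of 1.73 (edgeR adjusted p = 0.0369) and the chemokine gene Ccl6 one of -1.25 (edgeR adjusted p = 0.0421).

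In the families of single members a few genes were called. Of 18 tested tetraspanins other than Cd9 and Cd63, 2 rose, Tspan3 with a log2 fold change of 0.68 (edgeR adjusted p = 0.0342) and Tspan9 with 1.03 (edgeR adjusted p = 0.0374), and none fell. Of 5 tested galectins besides Lgals3, Lgals4, a galectin of gut epithelium, fell (log2 fold change -2.70, edgeR adjusted p = 0.0256, and -1.91 without control-diet mouse 2), as epithelial markers did. Of 3 tested beta2 integrin genes other than Itgax, 2 (66.7%) fell, against 7.91% of all genes. Itgb2, the beta chain that CD11c needs to reach the surface, had 533 and 557 CPM against 1354 and 1069 CPM with control diet (log2 fold change -1.15, SE 0.18, edgeR adjusted p = 0.0219). Itgal, the alpha chain that pairs with it in lymphocyte function antigen, fell as well (log2 fold change -1.02, edgeR adjusted p = 0.0326). Itgam, the alpha chain gene among the sort antigens, was not called (log2 fold change 0.02, edgeR adjusted p = 0.96). Neutrophils, monocytes and lymphocytes also express Itgb2 and Itgal. Of the markers of these cells, 5 of 8 neutrophil and 0 of 6 monocyte markers were called lower, as were Gzma of 10 T and NK cell markers and Cd79a of 4 tested B cell markers. Their part in the Itgb2 and Itgal values was not tested. The ratio of Itgax to Itgb2 counts was 0.956 and 0.807 in the high-fat-diet and 0.48 and 0.49 in the control-diet mice.

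Receptors of osteopontin and lysosomal partners had no calls. Of 9 tested Spp1 receptors edgeR called 0 (median log2 fold change -0.28). The smallest p was that of Itga4, the alpha4 integrin chain, with 115 and 69 CPM against 181 and 179 CPM (edgeR adjusted p = 0.0598), and Cd44 had 499 and 408 CPM against 736 and 594 CPM (edgeR adjusted p = 0.113). Of 24 lysosomal partners of Lipa and Lgmn edgeR called 0 (median 0.12). The proteases Ctsl, with 457 and 469 CPM against 340 and 279 CPM (edgeR adjusted p = 0.0752), and Ctsb, with 2393 and 2894 CPM against 1507 and 2020 CPM (edgeR adjusted p = 0.125), had higher values without passing the test. At an unadjusted p under 0.05, 3 of the Spp1 receptors (1 higher, 2 lower) and 4 of the lysosomal genes (3 higher, 1 lower) would pass. DESeq2 called 2 and 1, and 2909 genes in all. The share of all genes at that unadjusted p was not counted, so those counts have no background here.

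Of 17 transcription factors tied to the programme, Maf rose and none fell (median log2 fold change -0.16), a share of 5.88% called against 10.5% of all genes. Maf, a factor of resident-type macrophages, had 349 and 353 CPM under high-fat feeding, against 119 and 192 CPM under control feeding (log2 fold change 1.17, SE 0.24, edgeR adjusted p = 0.0375). Nr1h3, the liver X receptor alpha gene, had 27.3 and 24.4 CPM against 17 and 11.8 CPM (edgeR adjusted p = 0.0582). Of the 4 MiT/TFE genes, whose products can drive lysosomal genes and Gpnmb, none was called: Mitf had 28 and 25.4 CPM against 35.1 and 40.7 CPM (edgeR adjusted p = 0.085), and Tfe3 had 107 and 113 CPM against 150 and 147 CPM (edgeR adjusted p = 0.0943). Tfeb had 45.6 and 46.2 CPM against 62.4 and 51.9 CPM (edgeR adjusted p = 0.211), and in Tfec the diets overlapped (edgeR adjusted p = 0.982).

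Of the 19 genes called in these lists, most lost their call when a high-fat-diet mouse was left out, with fold changes of about the same size. Without high-fat-diet mouse 1, the calls of Apoe and Apoa1 remained and 17 ended (edgeR adjusted p from 0.1 to 0.261). Without high-fat-diet mouse 2, those of Apoe and Trem1 remained and 17 ended (edgeR adjusted p from 0.0544 to 0.25). All 19 remained without control-diet mouse 1 and without control-diet mouse 2. Itgb2, for example, was at -1.10 and -1.16 on the log2 scale without high-fat-diet mouse 1 and mouse 2, and Maf at 1.20 and 1.18. Trem1 moved more, to -1.37 and -1.85. Without control-diet mouse 1 and mouse 2, Malt1 was at -1.05 and -2.20, Ccl6 at -0.79 and -1.59 and Maf at 0.87 and 1.56. Others moved little there, as did Apoe (1.95 and 2.13) and Tspan3 (0.68 and 0.68). Such a fit takes the spread between mice from the diet that still has 2.

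**Figure D4:**
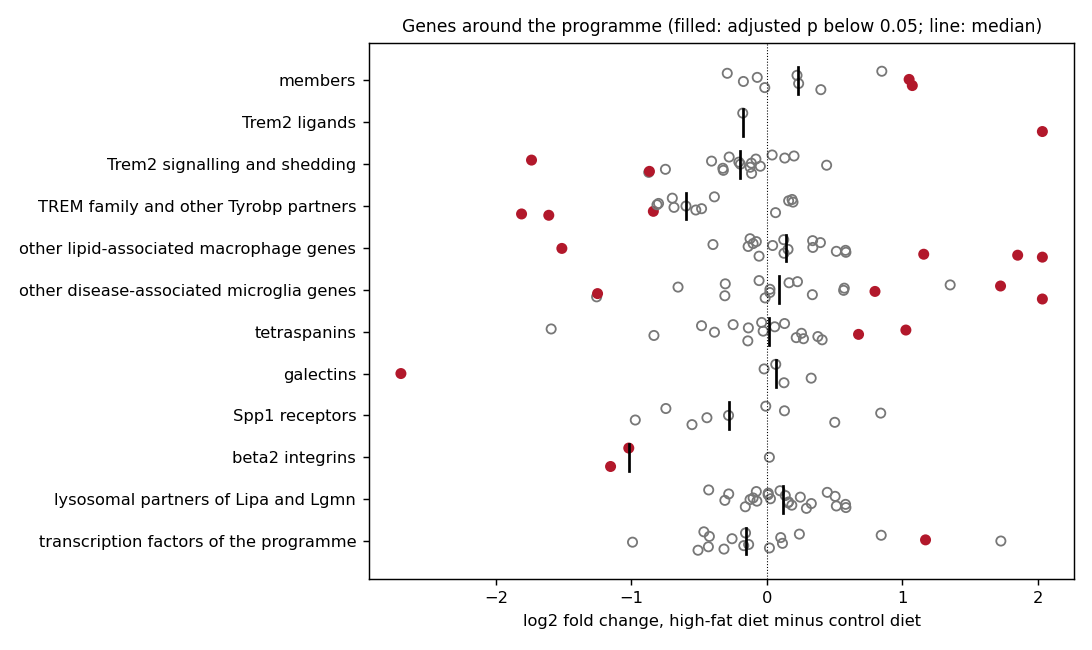
Log2 fold change, high-fat diet minus control diet, of each tested gene in the set and in 11 lists of related genes (points), filled where the adjusted p was below 0.05, with the list's median (line). Apoa1, at 0 counts with high-fat diet, is counted in its median but not drawn. The called points of the TREM family, of TREM2 signalling and of beta2 integrins lie below 0.

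**Figure D5:**
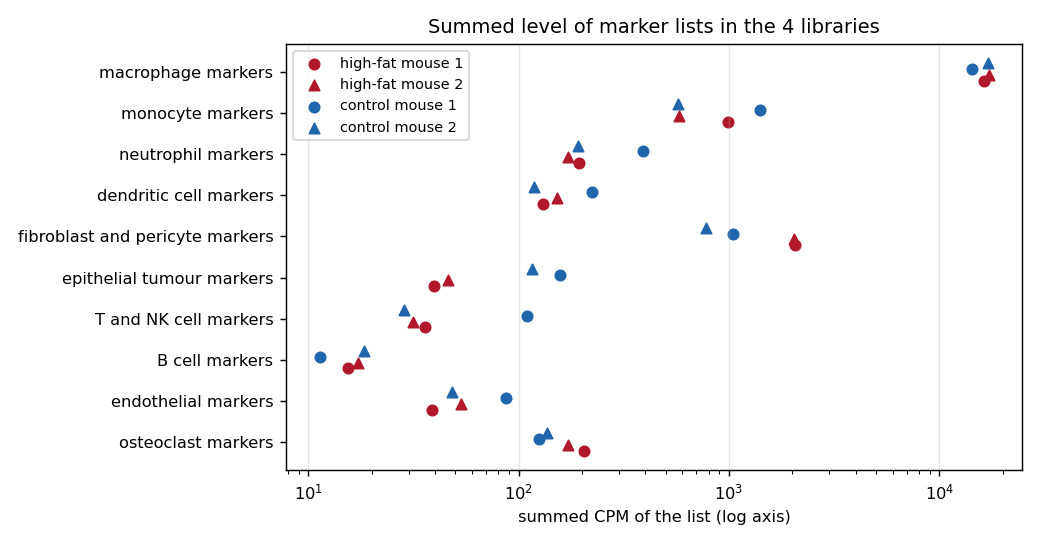
Summed CPM (log axis) of marker lists in each library, red for high-fat diet and blue for control diet, circles for mouse 1 and triangles for mouse 2. Fibroblast and pericyte markers (mostly Col3a1) are higher in both high-fat-diet mice. Epithelial tumour markers (mostly Cdh1, except in control-diet mouse 2) are lower in both high-fat-diet mice. Control-diet mouse 1 has the highest sums of monocyte (1397 CPM), neutrophil (392) and T and NK cell markers (109).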

How the data were processed

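The authors deposited raw counts, unnormalised whole numbers per gene, for 4 libraries of polyA RNA, 2 mice per diet. BWA 0.7.12, cutadapt 1.15, FastQC 0.11.5 and also DESeq2 1.24.0 stand in the submitters' processing notes, with the builds GRCm38 and mm10. The sources used here give neither their roles nor the counting program, its strand setting or the annotation release.

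Symbols matched 53274 identifiers. Positions and exons came from GENCODE mouse release 21, with start and end printed only where the identifier's version was the same. Lipa's was not, so its transcript length per kb is that of another version, and no position is printed for Cd63-ps. Genes passing filterByExpr (minimum count 10, minimum total 15) went into edgeR 4.0.16 (R 4.3.3): TMM scaling, robust dispersions, quasi-likelihood test with diet as the only term, Benjamini-Hochberg adjustment over all 18422 genes. The step was tested on simulated data. The SE is the log2 fold change divided by the square root of F. Near-identical transcripts were found with blastn 2.17.0 (at least 90% identity over at least 150 bases). Alternatives used limma 3.58.1 (voom), DESeq2 1.42.0, other scaling, other filters, the mouse number as a block, and 1 library left out.

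The 10 genes and the 11 related and 10 marker lists were chosen with earlier results of these data known. Named are the 10 genes, Cd63-ps, the called genes and up to 4 of smallest p per related list, and the 5 genes closest to Trem2. Marker genes outside these, Tfeb, Tfec and Cd9-ps, were named after their values were seen. Precision rests on 2 mice per diet, and the reads carry no molecular identifiers.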

Additional observations from a re-analysis of the deposited data

How the results depend on the processing

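Of the 10 genes, 2 were called higher in edgeR, and between 0 and 4 when 1 library was left out: 0 when high-fat-diet mouse 2 was removed, 1 when its group mate was removed and 4 when control-diet mouse 2 was removed. With DESeq2, without a filter on low counts and with the replicate block, 3 were called. None was called lower under any alternative run. Over all genes, 480 were called higher and 1457 lower. The higher calls numbered 1062 with DESeq2, 1552 without a filter and 262 at a minimum count of 50, and 71 to 1934 with 1 library left out. The lower calls numbered 2231 without a filter and 891 at a minimum count of 50, and 300 to 2534 with 1 library left out. The cause of these moves was not tested.

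Signs turned for genes near 0. With 1 library left out, log2 fold changes ran from -0.13 to 0.11 for Tyrobp, -0.39 to 0.22 for Lgals3, -0.06 to 0.58 for Lipa, -0.06 to 0.35 for Lgals1, -0.09 to 0.24 for Lgals9 and -0.19 to 0.27 for Itgam. Tyrobp was at 0.03 without a filter, and Itgam at -0.01 with upper-quartile scaling and at a minimum count of 50. Among the related genes called, limma-voom ended the call of Cd36, and the absent filter ended those of Cd36 and Malt1. The minimum count of 50 ended those of 5 genes (edgeR adjusted p from 0.0513 to 0.0641) and left Apoa1 untested.

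The labels give both diets a mouse 1 and a mouse 2 without saying that a number marks a shared cage or day. Across 10312 genes, the difference of mouse 1 minus mouse 2 had a correlation of -0.188 between the diets. The mouse number as a block gave 567 higher and 1481 lower calls, brought Lgmn, Tspan13, Itga4 and Nr1h3 past the threshold (Lgmn adjusted p = 0.0448) and ended the call of Tspan3 (0.0622). The crossed pairing, chosen after seeing the data, gave 909 higher and 1546 lower calls.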
